A study of Mus musculus with 2 samples.

Results

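A group of 9 neighbouring genes of mouse chromosome 9 was examined, namely Twf2, Alas1, Poc1a, Dusp7, Acy1, Abhd14a, Abhd14b, Pcbp4 and Parp3, out of 25778 genes counted in single cells of the retina. The members were chosen by position next to Poc1a and Abhd14b, which were selected on their measured difference between a Ptbp1-KO and a Ptbp1-Ctrl library, so the differences of these genes are given as a description and support nothing by themselves. The question was whether the neighbours of Poc1a differed in the same way, and in which retinal cell types. On the GRCm38 (mm10) build the outermost members span chr9:106203108-106476949, 274 kb, and all 9 are annotated as protein-coding.

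The product of Ptbp1 binds RNA and keeps neuronal exons out of transcripts, and the study deleted it in the developing retina. The Ptbp1-KO mouse carried Chx10-Cre and 2 floxed alleles (Chx10-Cre;Ptbp1lox/lox), in which loxP sites lie around the promoter and the 1st exon of Ptbp1, whereas the Ptbp1-Ctrl mouse carried Chx10-Cre without floxed Ptbp1, so both carried the Cre transgene. Chx10-Cre acts in retinal progenitors, from which all the neurons and the Müller glia of the retina descend. Whole retinas of mice aged 30 days (P30) were dissociated and profiled by 3′ droplet single-cell RNA sequencing, with 1 mouse and 1 library per genotype. The mouse strain and whether the mice were littermates are not given in the sources used here.

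The libraries held 16421 Ptbp1-Ctrl and 14522 Ptbp1-KO cells, with medians of 1442 and 1740 UMIs (unique molecular identifiers, each 1 captured transcript) per cell, and 63 cell barcodes occurred in both. The study's own assignment was used, with rods and cones, Müller glia (MG), and neurons of the inner retina, that is, bipolar (BC), amacrine (AC), horizontal (HC) and ganglion (RGC) cells, and in both libraries the summed markers of each of the 7 types were highest in the type they mark. The methods describe female mice, whereas both libraries went against this, with 5 and 6 UMIs of Xist and between 1413 and 7085 UMIs of each of 4 Y-linked genes. Ptbp1 itself, the deleted gene, had 255 UMIs in rods of Ptbp1-Ctrl and 4 in rods of Ptbp1-KO, and 294 and 6 in MG. With 1 library per genotype no test between genotypes is possible. Every interval below is a 95% interval that covers counting error only, not the spread between mice.

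Apart from Abhd14a and Abhd14b, the members belong to unrelated families. Poc1a is a centriolar protein needed for stable centrioles and for cilia, and rods and cones carry a modified cilium as their outer segment. Abhd14a and Abhd14b are alpha/beta hydrolase fold proteins, and Abhd14b has been described as a lysine deacetylase. Acy1 is an aminoacylase that splits N-acetylated amino acids, Alas1 makes aminolevulinate at the start of haem synthesis, and Parp3 is an ADP-ribosyltransferase of DNA break repair. Dusp7 is a phosphatase of ERK kinases, Twf2 binds actin monomers and Pcbp4 binds cytosine-rich RNA.

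Abhd14a and Abhd14b lie head to head on opposite strands, and Poc1a lies at lower coordinates than both, beyond the 3′ end of Abhd14a. Their RefSeq promoters (GRCm38.p6, 250 bases before to 50 bases after the start site) are shown because these 3 genes gave the clearest differences, Poc1a and Abhd14b upward and Abhd14a downward. They are Poc1a at chr9:106280811-106281110 on the + strand, Abhd14a at chr9:106447629-106447928 on the - strand and Abhd14b at chr9:106448390-106448689 on the + strand. Each is written 5′ to 3′ along the strand of its gene, and capitals mark matches to the motifs searched.
Poc1a: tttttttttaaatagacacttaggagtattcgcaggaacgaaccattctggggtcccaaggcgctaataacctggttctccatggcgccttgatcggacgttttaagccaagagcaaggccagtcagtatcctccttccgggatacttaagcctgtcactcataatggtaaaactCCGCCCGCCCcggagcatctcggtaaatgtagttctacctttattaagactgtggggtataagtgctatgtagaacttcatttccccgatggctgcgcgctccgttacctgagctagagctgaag
Abhd14a: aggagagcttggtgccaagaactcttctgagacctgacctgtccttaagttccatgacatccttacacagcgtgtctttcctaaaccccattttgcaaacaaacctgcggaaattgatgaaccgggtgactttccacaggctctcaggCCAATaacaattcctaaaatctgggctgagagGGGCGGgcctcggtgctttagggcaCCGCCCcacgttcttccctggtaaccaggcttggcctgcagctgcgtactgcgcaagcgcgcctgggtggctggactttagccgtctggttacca
Abhd14b: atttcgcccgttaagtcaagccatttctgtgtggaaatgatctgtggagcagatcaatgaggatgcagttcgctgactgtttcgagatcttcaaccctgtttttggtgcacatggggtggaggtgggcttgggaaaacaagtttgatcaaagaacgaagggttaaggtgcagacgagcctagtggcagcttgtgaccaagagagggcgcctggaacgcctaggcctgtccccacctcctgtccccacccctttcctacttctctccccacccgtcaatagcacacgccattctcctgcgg
The motifs searched, on both strands, were the CCAAT box (CCAAT), the GC box (GGGCGG), the TATA box (TATAAA), the core bound by OTX and CRX factors (TAATCC) and the E-box (CACGTG). The Poc1a promoter held 2 overlapping GC boxes, at 75 and 71 bases before the start site on the minus strand. The Abhd14a promoter held 1 CCAAT and 2 GC boxes, and the Abhd14b promoter held none of the 5 motifs. Among 32851 promoters of the same length, 37.4% held a CCAAT box, 35.7% a GC box, 13.6% a TATA box, 7.06% the OTX and CRX core and 7.15% an E-box. A match describes the letters of the window and no more. GC content was 48.3% for Poc1a, 54.7% for Abhd14a and 53.7% for Abhd14b, against a median of 52.7% over all promoters, and 7 of the 9 members had a promoter in the table. The RefSeq start sites of Abhd14a and Abhd14b lie 962 bases apart, while in the GENCODE annotation the bodies of both genes share 220 bases, 207 of them exonic.

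Poc1a was higher in the Ptbp1-KO library in all 5 cell types with enough counts. Rods of Ptbp1-Ctrl held 115 of its UMIs and rods of Ptbp1-KO 1495, which is 8.82 CPM (counts per 1000000 UMIs, interval 7.28 to 10.6) against 103 (98.0 to 108), a log2 ratio of 3.55 (3.27 to 3.83). In cones it had 8 and 64 UMIs, 4.58 against 44.9 CPM, a log2 ratio of 3.29 (2.23 to 4.56). The intervals of the level did not overlap between the libraries in any of the 5 types. The rod ratio ranked 14 from the top among 12742 genes with at least 50 UMIs in rods. Poc1a was picked for this difference, so the rank is a description. In BC it had 41 and 195 UMIs (log2 ratio 2.18, 1.69 to 2.71), in AC 3 and 74 (3.65, 2.04 to 5.96) and in MG 23 and 89 (2.17, 1.49 to 2.90). The AC ratio rests on 3 UMIs in Ptbp1-Ctrl and has the widest of these 5 intervals. With rod RNA subtracted (described with the rod markers), the log2 ratio was 2.91 in cones but fell under 2-fold in BC (0.60) and MG (0.36), and none could be given in AC.

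Abhd14b was higher in the Ptbp1-KO library in rods, cones, BC and AC and lower in MG. In rods it had 422 and 2904 UMIs, 32.4 (29.4 to 35.6) against 200.4 (193 to 208) CPM, a log2 ratio of 2.63 (2.48 to 2.78). In cones it had 70 and 320 UMIs, 40.1 against 224 CPM (log2 ratio 2.48, 2.11 to 2.88), and in BC 515 and 1367, 52.6 against 134 CPM (1.34, 1.20 to 1.49). The ratio was thus larger in photoreceptors than in BC, with intervals that do not overlap. In AC it had 43 and 204 UMIs (log2 ratio 1.27, 0.79 to 1.78), and in MG 332 and 228 UMIs, 56.2 against 44.8 CPM (-0.33, -0.58 to -0.08). With rod RNA subtracted, the log2 ratio was 0.09 in AC, no longer past 2-fold, and -1.58 in MG, past it. In Ptbp1-Ctrl its level was highest in MG, followed by BC, which did not differ beyond counting error, whereas in Ptbp1-KO cones and rods were highest, again without a difference beyond counting error, and AC and MG lowest, which did not differ beyond it either.

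Abhd14a, its divergent neighbour, was lower in the Ptbp1-KO library in all 5 types. Rods had 1099 and 212 UMIs, 84.3 (79.4 to 89.4) against 14.6 (12.7 to 16.7) CPM, a log2 ratio of -2.53 (-2.75 to -2.31). This is a 5.76-fold lower level in rods, beside the 6.19-fold higher level of Abhd14b in the same cells. Cones had 112 and 23 UMIs (log2 ratio -1.99, -2.71 to -1.34), BC 308 and 84 (-1.94, -2.31 to -1.59) and AC 59 and 48 (-1.28, -1.86 to -0.70). With rod RNA subtracted, the AC ratio was -0.65, within 2-fold. In MG the 302 and 143 UMIs gave a log2 ratio of -0.86 (-1.16 to -0.57), the smallest of the 5. In Ptbp1-Ctrl its level was highest in rods, followed by cones and MG, and in Ptbp1-KO it was highest in MG.

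**Figure D1:**
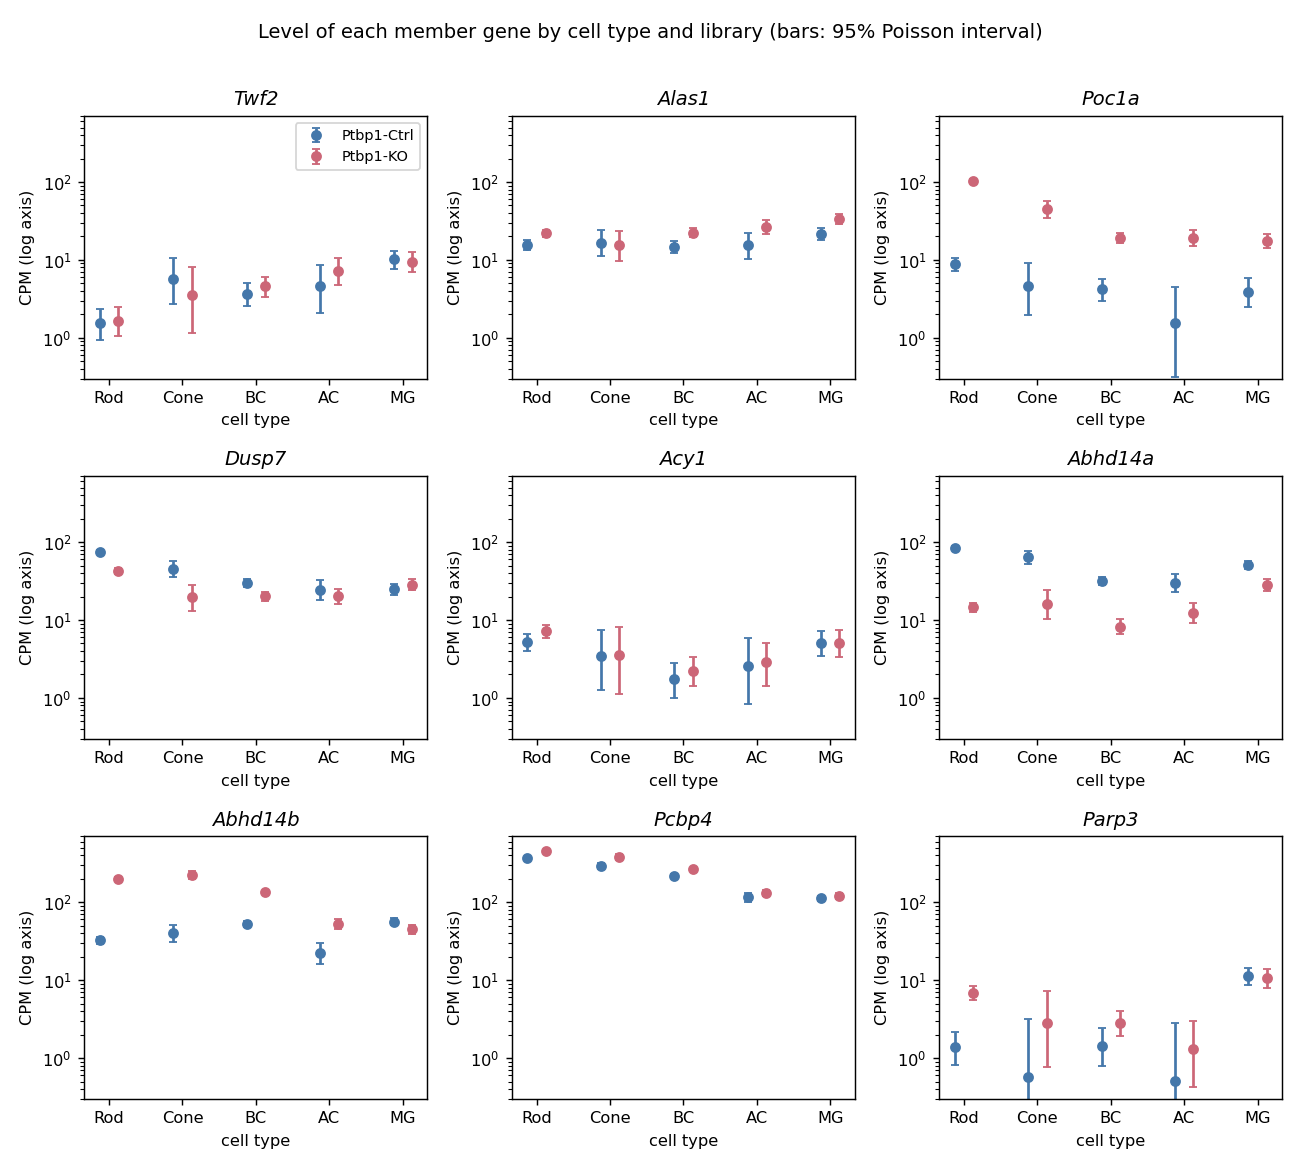
Level of each of the 9 genes in CPM (log axis) in 5 cell types, with Ptbp1-Ctrl in blue and Ptbp1-KO in red, 1 library each, and bars for the 95% Poisson interval (counting error only). Poc1a is higher in Ptbp1-KO in all 5 types and Abhd14a lower in all 5, while Abhd14b is higher in the neurons and lower in MG.

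Parp3 was higher in the Ptbp1-KO library in rods, where it had few UMIs, and not in MG, where its level was highest. Rods had 18 and 99 UMIs, 1.38 (0.818 to 2.18) against 6.83 (5.55 to 8.32) CPM, a log2 ratio of 2.31 (1.57 to 3.12). In MG it had 66 and 54 UMIs (log2 ratio -0.07, -0.62 to 0.47). In cones, BC and AC it had 5, 43 and 6 UMIs over both libraries, under the minimum of 50 used for counts of genes.

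Dusp7 was lower in the Ptbp1-KO library in rods, cones and BC, by less than Abhd14a. Rods had 982 and 617 UMIs, 75.3 against 42.6 CPM (log2 ratio -0.82, -0.97 to -0.68), and cones 79 and 28 UMIs (-1.20, -1.88 to -0.57). BC gave -0.59 (-0.85 to -0.33). In AC (-0.28, -0.82 to 0.27) and MG (0.21, -0.14 to 0.55) the interval of the log2 ratio held 0. With rod RNA subtracted, the ratio was -1.63 in cones, -0.41 in BC, 0.16 in AC and 0.84 in MG.

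The remaining 4 members stayed within 2-fold in each cell type where they had 50 UMIs. Within the study's largest BC cluster, Alas1 had 34 and 84 UMIs and passed it (log2 ratio 1.03, 0.44 to 1.65). Pcbp4 had 4858 and 6653 UMIs in rods, 373 against 459 CPM (log2 ratio 0.30, 0.25 to 0.35), and its log2 ratio lay between 0.10 and 0.39 in the 5 types. Alas1 had 204 and 317 UMIs in rods (0.48, 0.22 to 0.74) and log2 ratios of 0.60 in BC, 0.79 in AC, 0.64 in MG and -0.11 in cones. Acy1 had 68 and 104 UMIs in rods (0.46, 0.01 to 0.92) and 30 and 26 in MG (0.01), with 11 to 40 UMIs over both libraries elsewhere. Twf2 was sparse in rods, with 20 and 24 UMIs, and its log2 ratio was 0.32 in BC and -0.11 in MG, both with intervals that held 0.

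**Figure D2:**
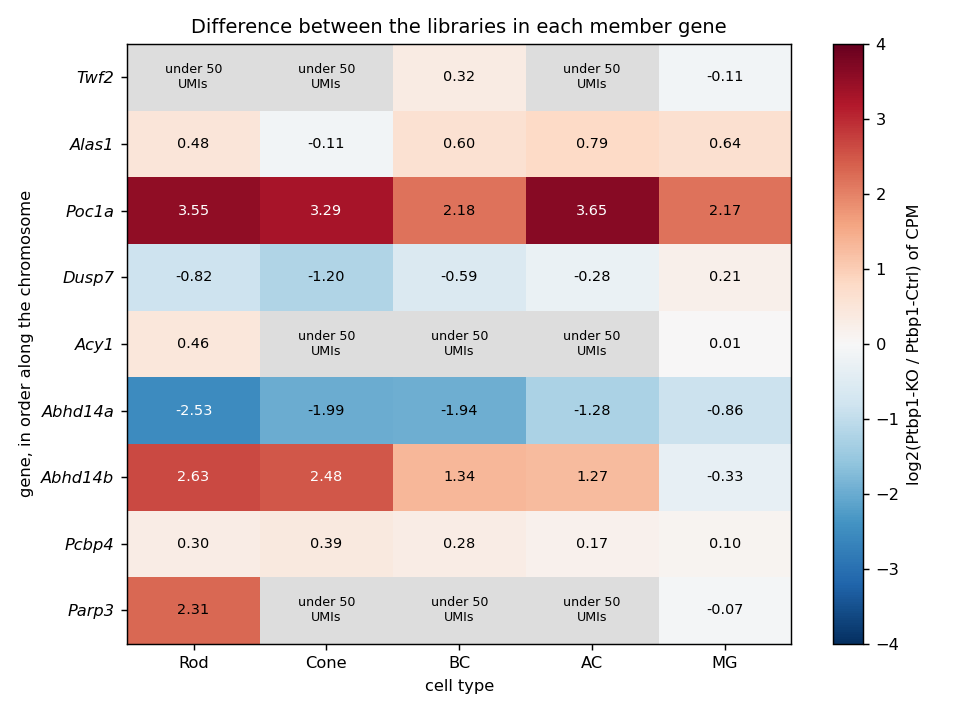
Log2 ratio of CPM, Ptbp1-KO over Ptbp1-Ctrl, for the 9 genes in their order along the chromosome (rows) and 5 cell types (columns), 1 library per genotype, with red for higher and blue for lower in Ptbp1-KO and grey under 50 UMIs. Poc1a runs from 2.17 to 3.65 and Abhd14a from -2.53 to -0.86, whereas Pcbp4 lies between 0.10 and 0.39.

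By a fixed size of 2-fold and at least 50 UMIs over both libraries, 3 of the 8 members counted in rods were higher in Ptbp1-KO (Poc1a, Abhd14b and Parp3) and 1 was lower (Abhd14a), beside 2.58% of all 12742 genes higher and 0.502% lower (3.08% in either direction). In cones, 2 of 6 were higher (Poc1a and Abhd14b) and 2 lower (Abhd14a and Dusp7), beside 0.778% and 0.515% of all genes (1.29% in either direction). In BC, 2 of 7 were higher and 1 lower, beside 0.972% and 0.551% (1.52% in either direction), and in AC 2 of 6 were higher and 1 lower, beside 0.602% and 0.454% (1.06% in either direction). In both types these were Poc1a and Abhd14b, and Abhd14a. In MG all 9 members were counted and Poc1a alone passed 2-fold, higher, beside 1.28% of all genes higher and 0.712% lower (2% in either direction). With rod RNA subtracted, 1 member was higher past 2-fold in BC (Abhd14b), 0 in AC and 0 in MG, and 0 were lower in AC and 1 in MG (Abhd14b). Since the members were picked with these differences known, nothing is read from the counts. The median log2 ratio of the counted members was 0.47 in rods, 0.14 in cones, 0.32 in BC, 0.48 in AC and 0.01 in MG, against medians over all genes between -0.01 and 0.07. These medians include Poc1a and Abhd14b, picked for their difference, so nothing is read from them either. Of 7651 genes with 50 UMIs in all 5 types, 4 were higher past 2-fold in every type, namely Poc1a, Rtkn2, A930015D03Rik and Tmsb15b1 (0.0523%), and 7 were lower in every type (0.0915%), among them the neighbours Rpl29 and Gm19667.

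In RGC and HC the members were too sparse for more than their counts. RGC (124 and 97 cells) had 0 and 16 UMIs of Poc1a, at least 6.19-fold higher against a floor of 3 UMIs per library, 4 and 23 of Abhd14b and 21 and 6 of Abhd14a. The summed rod markers of RGC stood at 25669.9 CPM in Ptbp1-Ctrl and 31507 in Ptbp1-KO, against 39925 and 36049 in rods, and their part in these counts was not tested. HC (17 and 7 cells) had 16 and 1 UMIs of Abhd14a and at most 4 of Poc1a or Abhd14b in a library.

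Rod marker transcripts were also counted in the other cell types, which bears on the members outside rods. Over 9 rod markers, the median level in Ptbp1-KO was 25.8% of the rod level in cones, 14.3% in BC, 17.7% in AC and 13.9% in MG. Poc1a in Ptbp1-KO stood at 43.5% of its rod level in cones, 18.5% in BC, 18.6% in AC and 17.0% in MG, which in BC, AC and MG lies within the range of the 9 rod markers (12.4% to 22.8%, 13.7% to 20.9% and 12.1% to 17.4%). In Ptbp1-Ctrl, by contrast, Poc1a stood at 47.5% of its rod level in BC and 44.2% in MG, above those markers, and at 17.4% in AC.

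When rod RNA was subtracted from each type at the rod marker median, 77.4% of the Ptbp1-KO level of Poc1a was removed in BC, 81.8% in MG and 95.4% in AC. In AC its Ptbp1-Ctrl level fell below 0, so no ratio could be given. In cones 59.3% of the Ptbp1-KO level was removed. A difference in Poc1a past 2-fold thus remained in cones after the subtraction, and not in BC or MG, although the rod markers themselves ranged from 20.8% to 66.1% of the rod level in Ptbp1-KO cones, a range that also holds the Poc1a value there.

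Abhd14b kept most of its difference in cones (2.42) and BC (1.14) after the subtraction, and not in AC. Abhd14a stayed lower in Ptbp1-KO, at -1.82 in cones, -1.60 in BC, -0.65 in AC and -0.53 in MG. The subtraction takes all rod RNA to behave like the marker median and carries no interval.

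**Figure D3:**
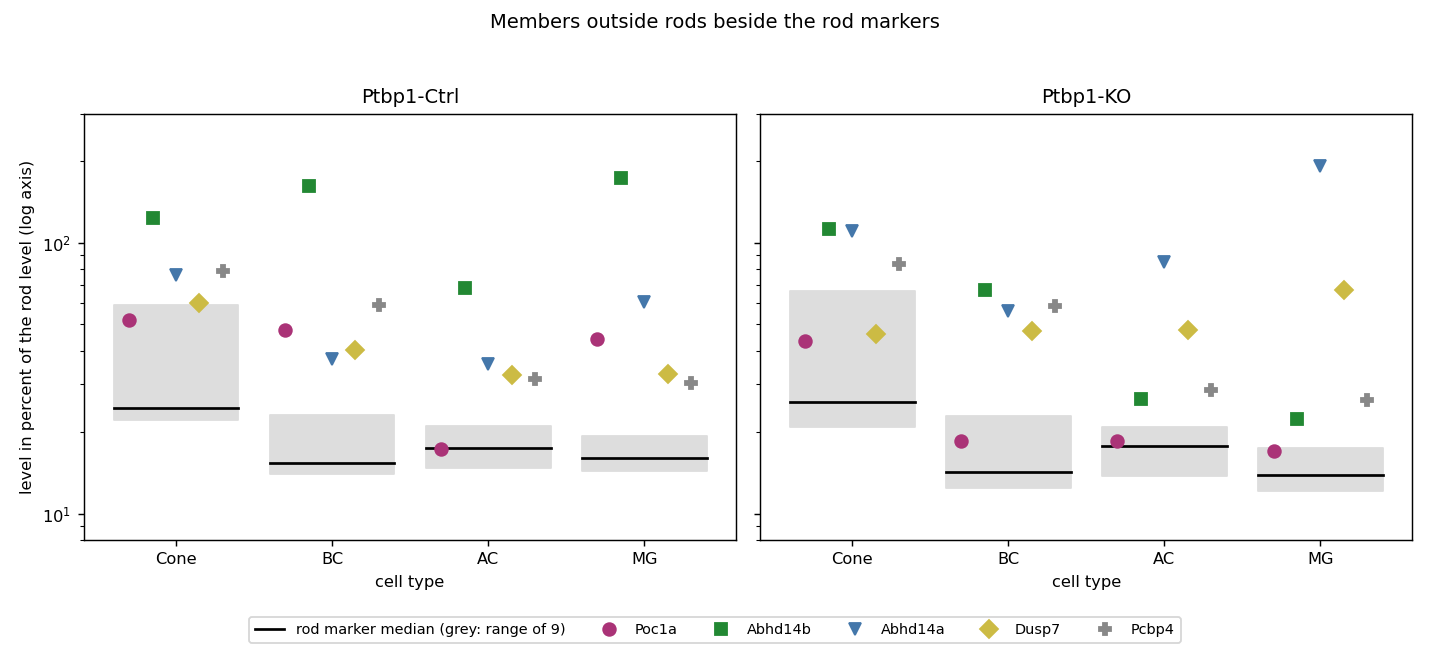
Level of 5 members in cones, BC, AC and MG in percent of their level in rods (log axis), for Ptbp1-Ctrl on the left and Ptbp1-KO on the right, with the median (line) and range (grey) of 9 rod markers. In Ptbp1-KO the Poc1a points of BC (18.5%), AC (18.6%) and MG (17.0%) fall inside the grey range, while Abhd14a lies above it in each of these types.

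The rods were then looked at cell by cell. With every rod thinned to 1000 UMIs, which left out 4155 of 10058 Ptbp1-Ctrl and 3126 of 9301 Ptbp1-KO rods with fewer, Poc1a was found in 0.779% of Ptbp1-Ctrl rods (exact Clopper-Pearson interval 0.571 to 1.04) and in 9.13% of Ptbp1-KO rods (8.43 to 9.88). Abhd14b was found in 3.02% and 17.6%, and Abhd14a in 8.06% and 1.43%. At their own depth, with medians of 1088 and 1288 UMIs per rod, the shares were 1.13% and 13.3% for Poc1a, 3.95% and 24.8% for Abhd14b and 10.1% and 2.21% for Abhd14a. MG, whose Poc1a level in Ptbp1-KO lay within the range of the rod markers, had Poc1a in 0.481% and 1.62% of thinned cells, at median depths of 3333 and 4178 UMIs before thinning.

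No single cell carried these counts. The highest Poc1a count in 1 Ptbp1-KO rod was 6 UMIs, 0.401% of the total, and that of Abhd14b was 6 UMIs, 0.207%. Both genes were found together in 98 of 6175 thinned Ptbp1-KO rods, where the product of their separate shares gives 99.0. Poc1a and Abhd14b were thus detected in the same rods about as often as their shares alone give.

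Within the study's own clusters the directions were shared. Poc1a was higher in Ptbp1-KO in all 4 rod clusters, with log2 ratios of 3.17 to 4.55, and in all 9 BC clusters, with 0.83 to 3.79, although the BC clusters had only 1 to 11 UMIs of it in Ptbp1-Ctrl. Abhd14b was higher in all 4 rod clusters (2.27 to 2.78), all 9 BC clusters (0.21 to 1.96) and all 3 AC clusters (0.52 to 1.45), and in the 2 MG clusters it was lower in one (-0.51, -0.79 to -0.24) and higher in the other (0.36, -0.58 to 1.29). Abhd14a was lower in all 19 clusters examined, each with at least 100 cells per library. Its interval held 0 in BC clusters 13, 18 and 20, AC cluster 14 and MG cluster 16. The interval of Poc1a held 0 in BC clusters 9 and 19, and that of Abhd14b also in BC cluster 20 and AC cluster 14. Parp3 was higher in all 4 rod clusters, from 1.36 (-0.03 to 2.98) to 3.65, on 1 to 6 UMIs per cluster in Ptbp1-Ctrl.

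**Figure D4:**
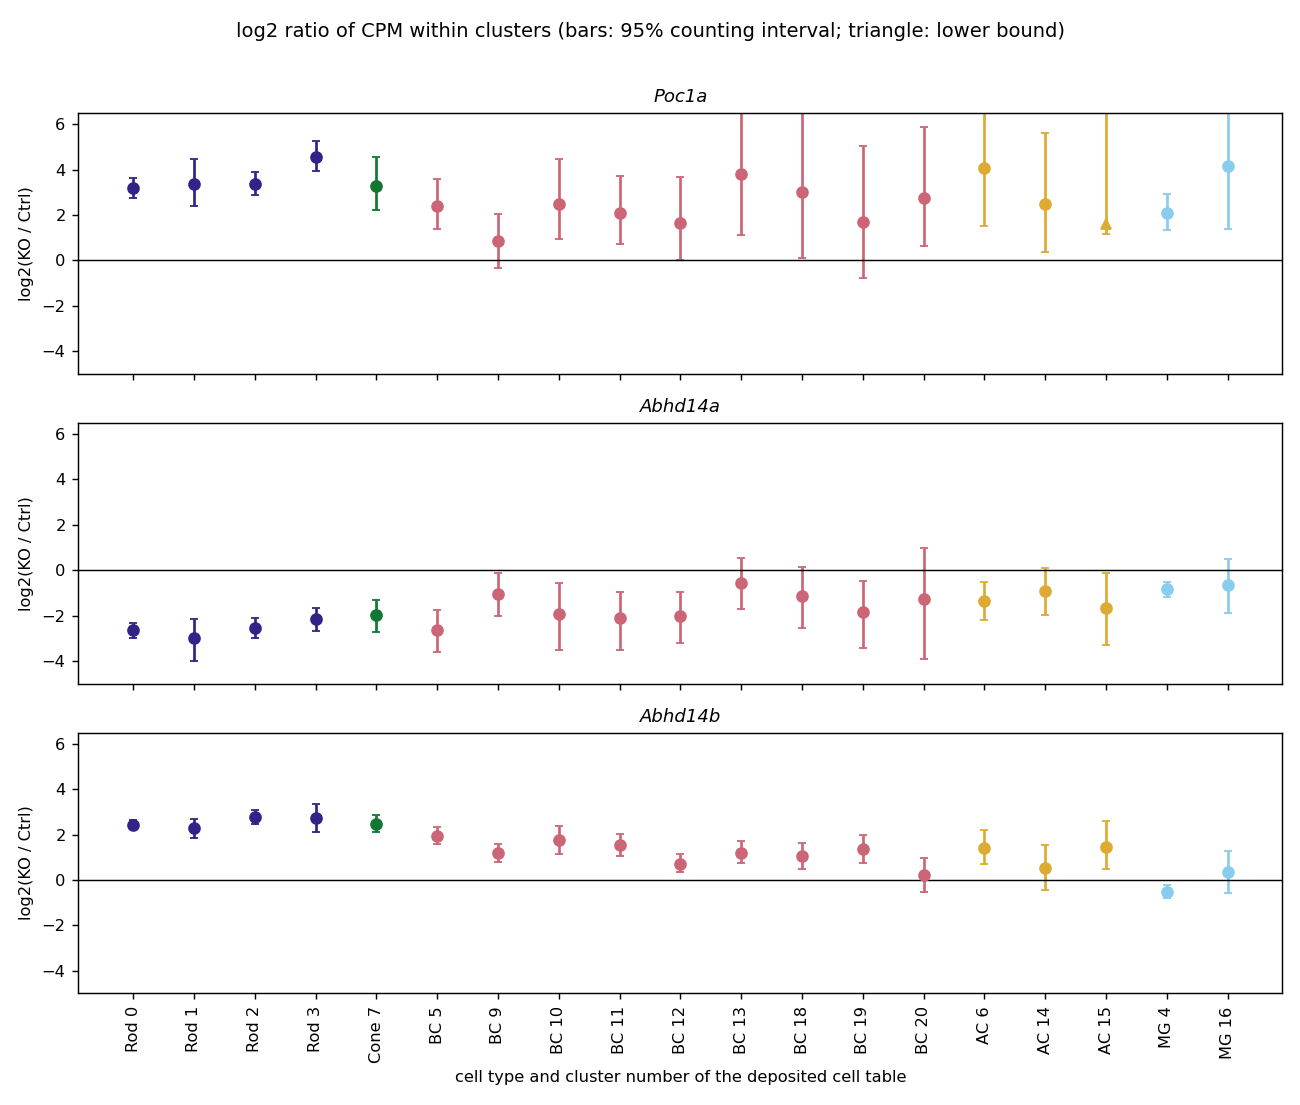
Log2 ratio of CPM (Ptbp1-KO over Ptbp1-Ctrl) of Poc1a, Abhd14a and Abhd14b within 19 clusters of the deposited cell table, coloured by cell type, with 95% counting intervals cut at the edge of the axis and a triangle for a lower bound. Every Abhd14a point lies below 0 and every Poc1a point above it, and the Abhd14b points of BC (0.21 to 1.96) lie below those of rods (2.27 to 2.78).

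Poc1a, Abhd14b and Abhd14a kept their directions in rods of different depth. Split into 4 groups by UMIs per cell, at 876.5, 1155 and 1673 UMIs, the log2 ratio of Poc1a was 3.06, 3.09, 3.19 and 4.13 from the shallowest to the deepest group. That of Abhd14b was 2.23, 2.42, 3.01 and 2.97, and that of Abhd14a lay between -2.82 and -2.26. Alas1, Dusp7 and Parp3 also kept their directions, whereas Pcbp4 gave 0.54, -0.09, 0.24 and 0.30. Acy1 and Twf2, with few UMIs, changed sign between groups as well.

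The 9 members are not every gene of the interval. Of 15 counted genes that overlap it, 12 had 50 UMIs in rods and 7 of these passed 2-fold (58.3%), against 1 of 17 genes within 1 Mb on either side (5.88%) and 2.86% of the genes of other chromosomes. The interval gave 5 of 8 in cones (62.5%), 4 of 11 in BC (36.4%), 4 of 9 in AC (44.4%) and 2 of 11 in MG (18.2%), against 1.14%, 1.35%, 1.01% and 1.82% of the genes of other chromosomes. Genes within 1 Mb on either side gave 2 of 13 in cones (15.4%), 3 of 15 in BC (20%), 2 of 14 in AC (14.3%) and 3 of 15 in MG (20%), so in MG the share beside the interval was above that within it. The interval was drawn around genes picked for their difference, so these shares are a description.

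Among the genes of the interval that are no members, Rpl29, a ribosomal protein gene between Dusp7 and Acy1, was lower in Ptbp1-KO in all 5 types, for example at 294 against 132 CPM in rods (-1.15) and 338 against 169 CPM in MG. Ribosomal protein genes have near-identical processed copies elsewhere, so this value is uncertain. Gm29123, an antisense transcript within the body of Poc1a that shares 0 exonic bases with it, had 19 and 79 UMIs in rods (log2 ratio 1.90, 1.17 to 2.71). Gm28959, whose 551 exonic bases all lie opposite exons of Abhd14b, had 172 and 51 UMIs in rods (-1.91, -2.39 to -1.45), the direction of Abhd14a and not of Abhd14b. Whether reads were counted by strand is not given in the sources used here, so the split between overlapping genes, Abhd14a and Abhd14b included, is uncertain. Gm28959 lies at the 3′ end of Abhd14b. The 207 exonic bases that Abhd14a and Abhd14b share lie at the 5′ ends of both genes, whereas the kit captures 3′ ends. How far the overlap bears on their counts was not tested. Rrp9, which shares 20 exonic bases with Parp3, gave 0.34 in rods and 0.29 in MG, and Gpr62, at the end of Pcbp4, gave 0.16 in BC and 0.75 in AC.

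Beyond the interval, the side after Parp3 held no gene past 2-fold within 1 Mb in rods, cones, BC or AC, and Cacna2d2 in MG (1.61). On the side before Twf2, Gm19667, with its start at -811 kb relative to that of Poc1a, was lower past 2-fold in all 5 types (-4.09 to -2.79). Aste1 was lower past 2-fold in cones (-1.63), BC (-2.11), AC (-1.90) and MG (-1.07) and gave -0.74 in rods, and Atp2c1 passed 2-fold in BC (-1.03). Genes past 2-fold and genes within it thus alternated along the chromosome, and Dusp7, Acy1 and Pcbp4 in rods lay within 2-fold between or beside members that did not.

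**Figure D5:**
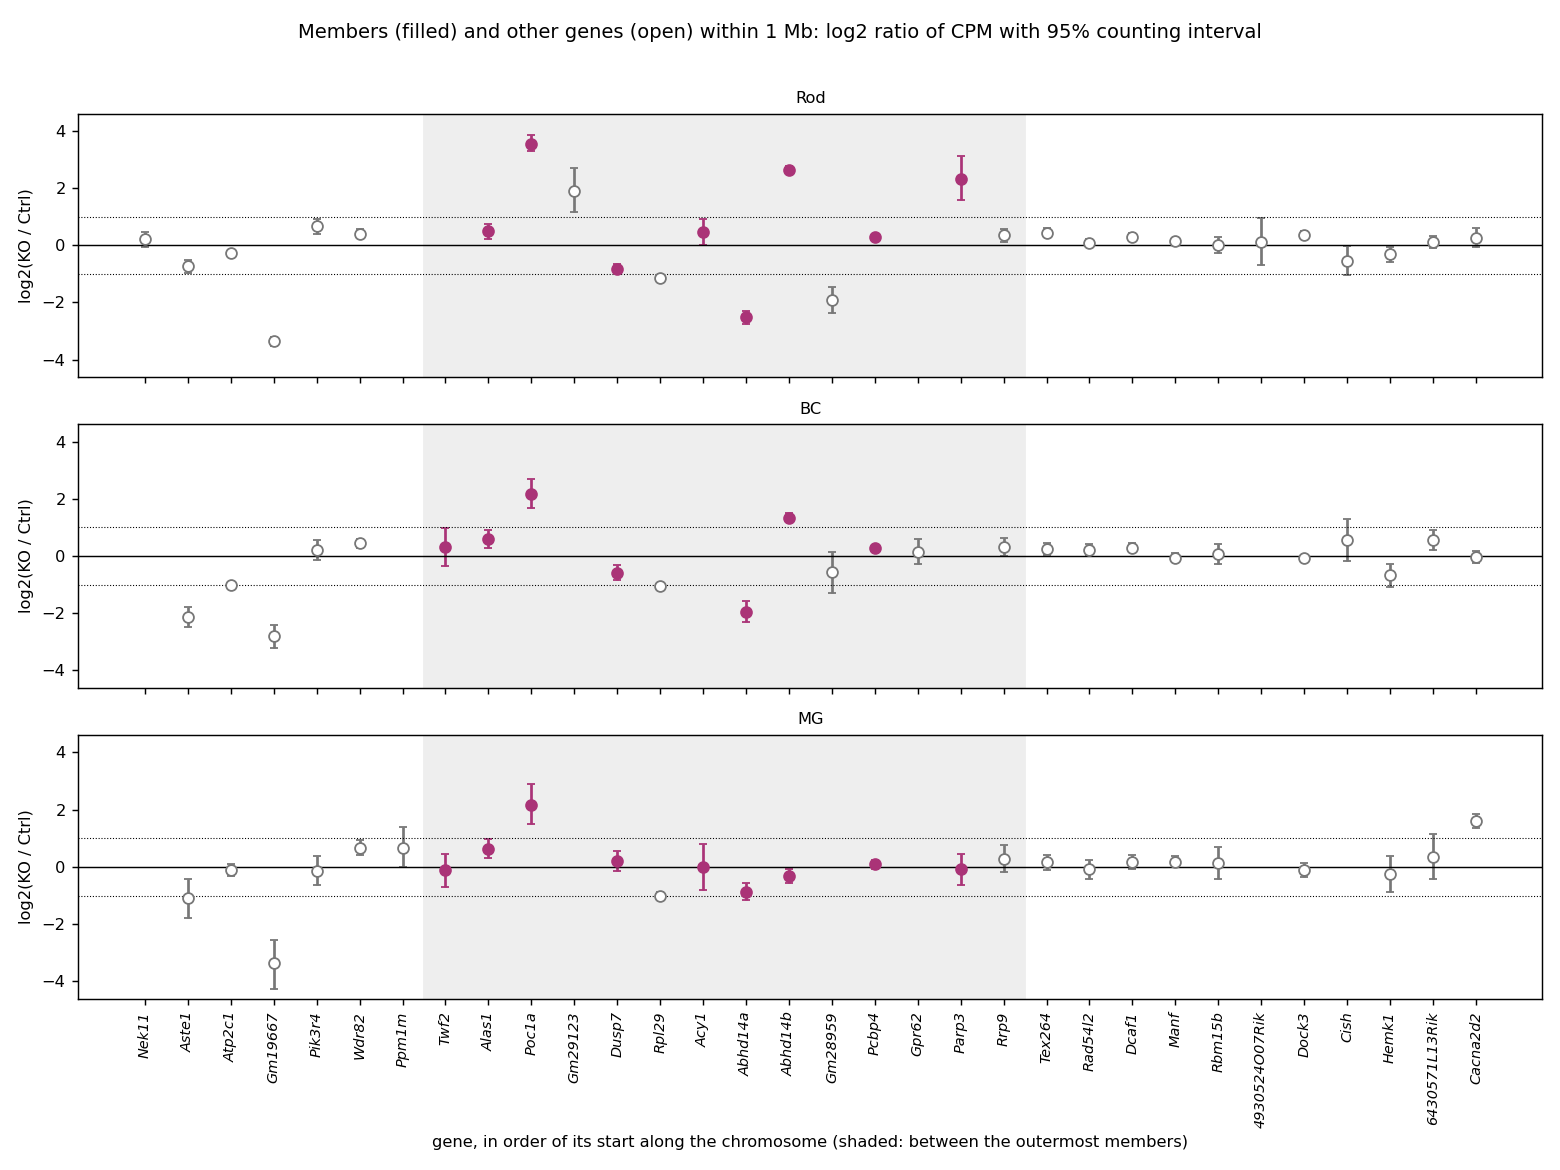
Log2 ratio of CPM (Ptbp1-KO over Ptbp1-Ctrl) in rods, BC and MG for genes with at least 50 UMIs, in order of their start along the chromosome, with members filled, other genes open, the interval of the members shaded, bars for the 95% counting interval and dotted lines at 2-fold. In rods, Poc1a (3.55), Abhd14b (2.63) and Parp3 (2.31) lie above the dotted line and Abhd14a (-2.53) below it, with Alas1, Dusp7, Acy1 and Pcbp4 in between.

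Relatives of the members elsewhere in the genome stayed within 2-fold where they had 50 UMIs. Of 12 paralogs listed, 8 had 50 UMIs in rods and none passed 2-fold in either direction (median log2 ratio 0.02, against 0.07 over all genes). Poc1b, the closest relative of Poc1a and also a centriolar protein, had 1471 and 1628 UMIs in rods (-0.01, -0.11 to 0.10). Genes of the centriole inner scaffold, to which Poc1b belongs, gave 0 of 7 past 2-fold in rods (median 0.01), with Fam161a at 0.12 and Poc5 at -0.05.

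Haem synthesis genes other than Alas1 gave 0 of 8 past 2-fold in rods, with a median of -0.08 and Alad, which acts just after Alas1, at -0.85 (-1.24 to -0.47). In cones, BC, AC and MG the 3 lists also held 0 genes past 2-fold with at least 50 UMIs. Alas2, the other aminolevulinate synthase gene, gave -0.16 in rods, and Parp1 and Parp2, relatives of Parp3, gave 0.05 and 0.50.

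The genes whose levels ran most like those of Poc1a were named by Pearson's r of log2(CPM + 1) over 10 sums, 5 types in each of the libraries, among 16612 genes. These were Slc17a1 (r = 0.979), A930015D03Rik (0.961), Cmah (0.949), Gm11342 (0.931) and Slc17a4 (0.929), of which Slc17a1, Slc17a4, Cmah and Gm11342 lie on chromosome 13 between positions 23867750 and 24477377. For Abhd14b they were Gm35101 (0.923), Gm11754 (0.918), Egln1 (0.915), C730002L08Rik (0.907) and Gm46332 (0.879). Between the members themselves, r was 0.84 for Poc1a and Abhd14b, -0.61 for Poc1a and Abhd14a, -0.66 for Abhd14a and Abhd14b and 0.69 for Abhd14a and Dusp7. The 10 sums share 2 libraries and their depths, so these values are a description.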

How the data were processed

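Retinal cells of 1 Ptbp1-Ctrl and 1 Ptbp1-KO mouse were captured with a 10x Genomics 3′ kit. The authors aligned reads to mm10, and the submitters' processing notes name Cell Ranger 7.0.1 and Seurat 4. The deposited table holds raw UMI counts of 25778 genes in 30943 cells, already filtered by the authors on genes, transcripts and mitochondrial share. The deposited cell table gives library, cell type, cluster and the percent of mitochondrial UMIs. Its totals equalled the summed counts in all 30943 cells, and 2 per-cell columns were not used. The annotation counted against is not given in the sources used here. Positions are from GENCODE M21 (GRCm38), in which 25116 gene names matched once.

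Counts were summed by library and cell type and scaled to counts per 1000000 UMIs (CPM). Levels have exact Poisson intervals and log2 ratios exact conditional binomial intervals. A gene was counted in a type with at least 50 UMIs over both libraries and called past 2-fold. The authors' Wilcoxon test over cells was not used, since cells are not replicates. No doublet caller was run, and an alternative left out the 10% of cells with most UMIs. Shares of cells used cells thinned to 1000 UMIs. The named genes were the 9 members, Ptbp1, other genes of the interval, genes within 1 Mb past 2-fold in a type, listed relatives and markers, and the 5 genes most alike to Poc1a and to Abhd14b. Rtkn2 and Tmsb15b1 fall outside that rule and were named after their values were seen. The members and lists were chosen with earlier results of these data known. Leaving out shared barcodes was added after seeing the data.

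Python 3.11.15, numpy 2.4.6, scipy 1.17.1, pandas 2.3.3, matplotlib 3.10.9, R 4.3.3 and edgeR 4.0.16 (TMM factors as an alternative scaling) were used, and the ratios were tested on simulated data. Alternatives covered scaling, thinning, cell filters, clusters, rod RNA, UMI minimum, fold and flank width.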

Additional observations from a re-analysis of the deposited data

Results flagged for a closer look

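Abhd14b ran in opposite directions in different cell types of the same libraries. Its log2 ratio of Ptbp1-KO over Ptbp1-Ctrl was 2.63 in rods, 2.48 in cones, 1.34 in BC and 1.27 in AC, and -0.33 in MG. With 1 library per genotype the difference between cell types was not tested. With rod RNA subtracted, the log2 ratio was 2.42 in cones, 1.14 in BC, 0.09 in AC and -1.58 in MG. The part of rod RNA in the opposite directions was not tested.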

How the results depend on the processing

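No paired analysis was possible because each genotype has 1 library, and no replicate was left out for the same reason. The 9 genes in 5 types gave 45 log2 ratios, recomputed under 9 settings: of 400 values, 373 stayed within the counting interval of the reported value, 27 moved out of it and 0 called values reversed. Rod values with rod RNA subtracted, and cone values in the largest cluster, equal the reported ones by construction. Ratios that could not be formed were left out. Sparse genes have wide intervals, so staying within them says little. Of the 27 moved values, 9 came with the largest cluster of each type, 8 with rod RNA subtracted and 7 with cells thinned. TMM scaling, median-of-ratios scaling and leaving out the 10% of cells with most UMIs moved 1 value each.

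In the largest rod cluster, Poc1a gave 3.17 and Abhd14b 2.43. Members counted as higher came to 1 in cones, 1 in AC and 0 in MG with cells thinned, where fewer members reached 50 UMIs, and as lower to 0 in cones and 0 in AC. With rod RNA subtracted, those higher came to 1 in BC, 0 in AC and 0 in MG, and those lower to 0 in AC and 1 in MG. The largest AC cluster gave 1 higher. At 100 UMIs, 1 was higher in cones and 1 in AC. At 1.5-fold, 2 were lower in rods, 2 in BC and 1 in MG, and 2 higher in MG. Alas1 also passed 1.5-fold upward in BC (0.60) and AC (0.79). At 3-fold, 1 was lower in cones and 0 in AC, and 1 higher in BC and 1 in AC. The share of flank genes past 2-fold was 3.42% in rods, 2.6% in cones, 7.34% in BC, 2.13% in AC and 6.67% in MG with flanks of 5 Mb, against 5.88%, 15.4%, 20%, 14.3% and 20% within 1 Mb.

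The share of rods with a UMI was, at their own depth in Ptbp1-Ctrl and Ptbp1-KO, 1.13% and 13.3% for Poc1a, 3.95% and 24.8% for Abhd14b and 10.1% and 2.21% for Abhd14a. Thinned to 700 UMIs it was 6.21% for Poc1a in Ptbp1-KO, 2.46% and 13.5% for Abhd14b and 6.04% and 1.0% for Abhd14a. Depth limits Acy1, Twf2 and Parp3, which had under 50 UMIs in 3 of the 5 types. Genotype, mouse and library cannot be told apart.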
